A study of Homo sapiens with 6 samples.

Results

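Aminoacyl-tRNA synthetases, the enzymes that attach each amino acid to its tRNA, were followed through the CUT&Tag peak lists of HepG2, an established human liver cancer line. CUT&Tag uses an antibody to bring a transposase to its target, so that nearby DNA is cut and carried into the library. The antibodies recognised H4K12la (histone H4 lactylated at lysine 12), HDAC1 (a histone deacetylase) or ENO1 (the glycolytic enzyme enolase 1). Each of the 3 targets had 2 replicate libraries of the same cell line, 6 in all, with no treatment or genotype named in the labels. Whether replicates were separate cultures is not stated, and their spread may be only technical. The 36 genes were taken by name from a list and found by symbol among 19866 protein-coding genes of RefSeq GRCh38: 16 mitochondrial enzymes (suffix 2), 19 cytosolic ones (suffix 1, with FARSA and FARSB) and TARS3, a threonyl enzyme that carries neither suffix. A gene was scored for a peak within 1 kb of either end of its entry, called here a gene-end peak, and for a peak in its body, farther than that from both ends.

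Cells charge tRNA in the cytosol and again inside mitochondria, and most of the mitochondrial enzymes have nuclear genes of their own. GARS1 and KARS1 each supply both compartments from a single gene, and EPRS1 joins the glutamyl and prolyl enzymes in one protein. AARS1 and AARS2, the alanyl enzymes, have also been described as lactyltransferases, and HDAC1 as an enzyme that can remove lactyl as well as acetyl groups from histones.

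The peak lists held 5459 and 7568 peaks on the assembled chromosomes for H4K12la replicates 1 and 2, 5727 and 4567 for HDAC1, and 1592 and 1189 for ENO1. Fold enrichment is the authors' value for each peak over background in its own library, and it was compared only within a library. Read depth is unknown here, so genes lacking a peak may still hold signal too weak to be called. Of 9 genes that mark hepatocytes, HNF4A alone had a gene-end peak in both replicates of a target (H4K12la, 3.55-fold and 3.34-fold), and ALB, AFP, APOA1, APOB, SERPINA1, TTR and FOXA2 had none in any library.

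H4K12la lay at the ends of 9 of the 36 synthetase genes in both replicates (25.0%, Wilson 95% interval 13.8 to 41.1), where 10.5% of all protein-coding genes carried it. The 9 were EARS2, LARS2, NARS2 and WARS2 among the mitochondrial enzymes and EPRS1, FARSB, GARS1, NARS1 and YARS1 among the cytosolic ones. HDAC1 lay at 10 (27.8%, 15.8 to 44.0), where 8.18% of all protein-coding genes carried it. These were CARS2, EARS2, HARS2, NARS2 and WARS2, then FARSB, HARS1, TARS1 and YARS1, and TARS3. ENO1 lay at none of the 36 in either replicate, against 0.166% and 0.101% of all protein-coding genes in replicates 1 and 2 and 0.0654% in both. Finding 0 of 36 allows a share of up to 8.33% (3 counts of the total, counting error only). A gene-end peak in at least 1 library was present at 22 of 36 synthetase genes (61.1%), and 29.1% of protein-coding genes had one. By library, H4K12la replicates 1 and 2 had gene-end peaks at 12 and 13 synthetase genes, against 13.5% and 19.5% of all protein-coding genes, and HDAC1 at 13 and 12, against 14.8% and 10.1%. No test against these backgrounds was made.

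**Figure D1:**
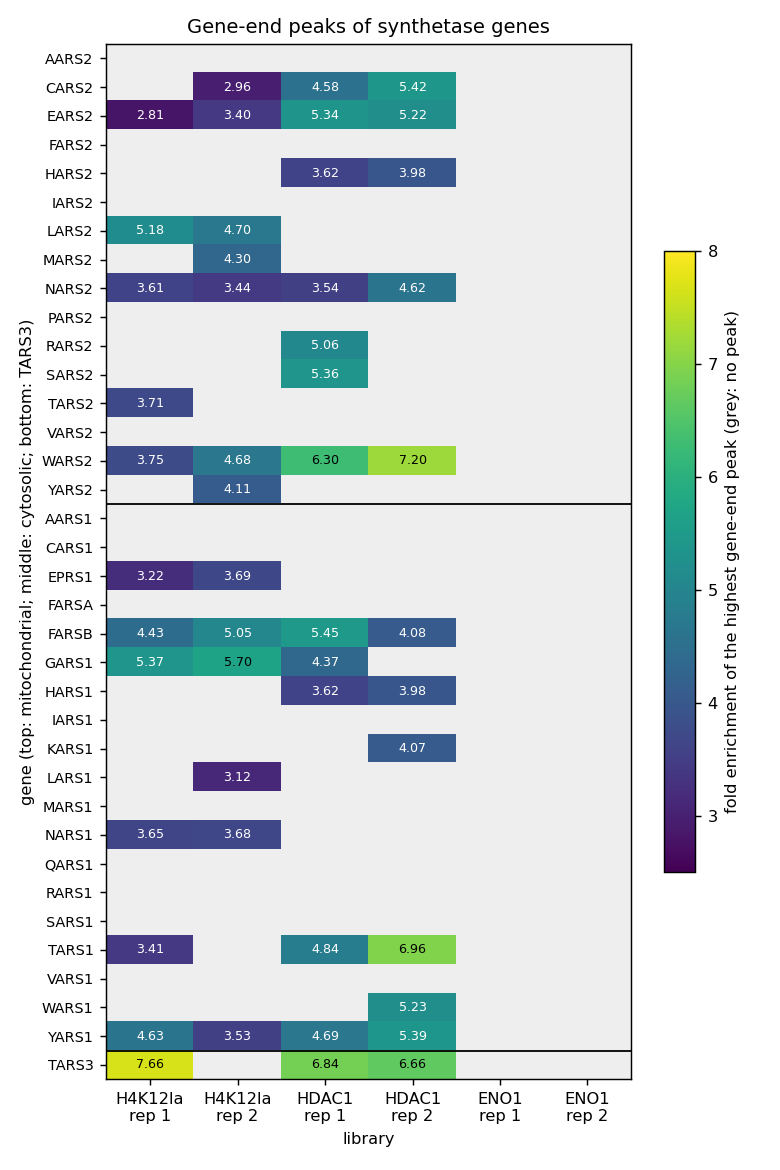
Fold enrichment of the highest gene-end peak at each of the 36 genes (down the page) in each of the 6 libraries (across), with grey where no peak was called. The 5 genes with both targets are filled in all 4 H4K12la and HDAC1 libraries, 14 are grey throughout, and both ENO1 columns are empty.

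Both H4K12la and HDAC1 were present in both replicates at 5 genes (13.9%, 6.08 to 28.7; 3.18% of all protein-coding genes): EARS2, NARS2, WARS2, FARSB and YARS1. Another 4 had H4K12la without reproducible HDAC1 (LARS2, EPRS1, GARS1 and NARS1), and 5 had HDAC1 without reproducible H4K12la (CARS2, HARS1, HARS2, TARS1 and TARS3). The shared genes made up 55.6% of the synthetase genes with H4K12la and 50% of those with HDAC1. Over all protein-coding genes the 631 shared genes made up 30.4% of those with H4K12la and 38.8% of those with HDAC1. None of these shares was tested. The count of shared genes changed with the peak threshold and with the replicates used. At a -log10 q of 5 or more, 1 synthetase gene kept both targets (YARS1), against 1.61% of all protein-coding genes. With replicate 1 of each target alone the count was 8, against 6.02% of all genes, and with replicate 2 alone 6, against 5.89%.

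The promoters of the 4 both-target genes that have an entry in the RefSeq promoter table are printed because peaks of both targets overlap them. Each runs 5′ to 3′ on the gene's strand from 250 bases before to 50 after the outermost tabulated start (RefSeq, GRCh38.p14), and capitals mark matches to the motifs described further on. EARS2 lies on the minus strand (chr16:23557326-23557625), FARSB on the minus strand (chr2:222656043-222656342), NARS2 on the minus strand (chr11:78574815-78575114) and WARS2 on the minus strand (chr1:119140623-119140922).
EARS2: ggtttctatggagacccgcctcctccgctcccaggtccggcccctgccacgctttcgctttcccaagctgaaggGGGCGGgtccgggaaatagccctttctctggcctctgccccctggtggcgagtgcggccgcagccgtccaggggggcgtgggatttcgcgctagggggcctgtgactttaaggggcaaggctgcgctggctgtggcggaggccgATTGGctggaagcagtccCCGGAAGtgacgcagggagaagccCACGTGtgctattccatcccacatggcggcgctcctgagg
FARSB: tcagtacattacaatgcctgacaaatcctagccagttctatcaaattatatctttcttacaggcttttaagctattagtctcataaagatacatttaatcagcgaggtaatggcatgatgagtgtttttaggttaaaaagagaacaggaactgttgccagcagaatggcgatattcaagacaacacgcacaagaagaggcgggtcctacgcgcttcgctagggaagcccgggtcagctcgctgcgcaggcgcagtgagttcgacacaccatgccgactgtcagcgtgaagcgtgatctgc
NARS2: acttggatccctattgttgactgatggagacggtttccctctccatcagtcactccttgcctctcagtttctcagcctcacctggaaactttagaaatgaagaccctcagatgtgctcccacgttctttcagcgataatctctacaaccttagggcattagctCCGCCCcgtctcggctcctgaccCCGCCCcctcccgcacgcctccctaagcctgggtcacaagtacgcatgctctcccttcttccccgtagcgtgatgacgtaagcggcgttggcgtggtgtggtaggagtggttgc
WARS2: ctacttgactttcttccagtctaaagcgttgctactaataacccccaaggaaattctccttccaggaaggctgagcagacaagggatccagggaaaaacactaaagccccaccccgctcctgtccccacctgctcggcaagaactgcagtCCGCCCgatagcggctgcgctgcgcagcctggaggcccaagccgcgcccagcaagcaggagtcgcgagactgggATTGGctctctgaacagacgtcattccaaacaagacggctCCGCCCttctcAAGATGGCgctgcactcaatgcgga
Peaks of all 4 libraries covered the whole EARS2 window, and 300, 300, 297 and 297 of the 300 FARSB bases in H4K12la replicates 1 and 2 and HDAC1 replicates 1 and 2. At WARS2 the cover was partial, 39 and 124 bases for H4K12la and 282 and 117 for HDAC1.

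WARS2, the mitochondrial tryptophanyl enzyme (chromosome 1, 119031216 to 119140672), had 3.75-fold and 4.68-fold H4K12la in replicates 1 and 2 and 6.30-fold and 7.20-fold HDAC1. Its HDAC1 peaks stood at percentiles 87.0 and 95.5 of fold among gene-end peaks of their libraries, and its H4K12la peaks at percentiles 39.7 and 77.0. FARSB, the beta subunit of the cytosolic phenylalanyl enzyme (chromosome 2, 222566899 to 222656092), had 4.43-fold and 5.05-fold H4K12la and 5.45-fold and 4.08-fold HDAC1. Its partner FARSA, the alpha subunit of the same enzyme, had no gene-end or body peak in any library. The subunits of this enzyme therefore stood apart in every H4K12la and HDAC1 list.

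YARS1, the cytosolic tyrosyl enzyme, had 4.63-fold and 3.53-fold H4K12la and 4.69-fold and 5.39-fold HDAC1. EARS2, the mitochondrial glutamyl enzyme, had the lowest H4K12la of the 5, 2.81-fold and 3.40-fold, with HDAC1 at 5.34-fold and 5.22-fold. NARS2, the mitochondrial asparaginyl enzyme, had 3.61-fold and 3.44-fold H4K12la and 3.54-fold and 4.62-fold HDAC1. The peaks of 2 of these genes also lay within 1 kb of another protein-coding gene: UBFD1, whose end is 352 bp from that of EARS2, and S100PBP, which overlaps YARS1. A peak there cannot be assigned to 1 of the neighbours.

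Among the genes with H4K12la alone, GARS1, the glycyl enzyme of both compartments (chromosome 7, 30594735 to 30634033), had the highest reproducible H4K12la of the 36 genes, 5.37-fold and 5.70-fold. LARS2, the mitochondrial leucyl enzyme (chromosome 3, 45388576 to 45549407), followed with 5.18-fold and 4.70-fold. GARS1 stood at percentiles 94.1 and 94.7 of gene-end peaks in these libraries and LARS2 at percentiles 91.5 and 77.4. NARS1, the cytosolic asparaginyl enzyme, had 3.65-fold and 3.68-fold, and EPRS1 3.22-fold and 3.69-fold. HDAC1 was absent from the lists at LARS2, NARS1 and EPRS1, and at GARS1 it was called in replicate 1 only, at 4.37-fold.

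The promoters of GARS1 and LARS2 are shown because these genes had the highest reproducible H4K12la folds. Both are on the plus strand, GARS1 at chr7:30594485-30594784 and LARS2 at chr3:45388326-45388625.
GARS1: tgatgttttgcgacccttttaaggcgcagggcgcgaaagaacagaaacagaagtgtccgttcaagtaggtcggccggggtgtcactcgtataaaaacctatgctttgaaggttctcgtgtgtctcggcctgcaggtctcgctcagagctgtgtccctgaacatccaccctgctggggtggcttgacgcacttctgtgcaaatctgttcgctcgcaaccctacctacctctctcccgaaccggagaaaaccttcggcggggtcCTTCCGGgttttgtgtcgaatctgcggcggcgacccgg
LARS2: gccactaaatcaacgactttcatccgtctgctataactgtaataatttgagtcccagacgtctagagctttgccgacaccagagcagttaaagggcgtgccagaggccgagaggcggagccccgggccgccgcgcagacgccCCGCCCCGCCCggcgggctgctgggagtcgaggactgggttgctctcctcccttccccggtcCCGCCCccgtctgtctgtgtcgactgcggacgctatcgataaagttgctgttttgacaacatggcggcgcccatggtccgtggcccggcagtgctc
At GARS1 neither H4K12la replicate covered a base of this window. Each had a peak before it, 30593886 to 30594412 in replicate 1 and 30593892 to 30594405 in replicate 2, and a lower peak after it that began at 30594904 in both, of 3.69-fold and 3.92-fold. H4K12la peaks thus flanked the GARS1 start in both replicates, with summits 777 and 782 bp upstream. At LARS2 the single H4K12la peak covered the last 122 bases of the window in each replicate, with summits 220 and 217 bp downstream of the start.

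Among the genes with HDAC1 alone, TARS3 had 6.84-fold and 6.66-fold and TARS1, the main cytosolic threonyl enzyme, 4.84-fold and 6.96-fold. TARS3 also held the highest H4K12la value of the 36 genes, 7.66-fold in replicate 1, percentile 99.9 of gene-end peaks there, but replicate 2 had no H4K12la peak within 214 kb of its ends. TARS1 likewise had H4K12la in replicate 1 only, at 3.41-fold. HARS1 and HARS2, the cytosolic and mitochondrial histidyl enzymes, lie head to head with starts 85 bp apart. They shared a single HDAC1 peak of 3.62-fold and 3.98-fold, so they are 1 place. Both genes still enter the HDAC1 counts, shares and medians given here. With genes under a shared peak counted once, HDAC1 lay at 9 synthetase genes. The CARS2 gene-end peak, 4.58-fold and 5.42-fold, lay within 1 kb of ING1, a chromatin-binding gene, and 6466 and 6720 bp upstream of the tabulated CARS2 start. Of the 10 HDAC1 genes, 5 (50%) had a peak shared with another protein-coding gene, as had 45.2% of all 1626 HDAC1 genes, and for H4K12la it was 2 of 9 (22.2%) against 37.7% of 2077. Without the genes under such peaks, HDAC1 remained at 5 synthetase genes and H4K12la at 7.

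Summits were set against the starts in the RefSeq promoter table, which holds 30 of the 36 genes and lacks AARS2, LARS1, TARS3, VARS1, VARS2 and YARS1. H4K12la peaks within 1 kb of a tabulated start were present in both replicates at 10 of the 30 (33.3%), against 11.8% of 15842 protein-coding genes, and HDAC1 peaks at 9 (30.0%), against 8.89%. No ENO1 peak met this in both replicates, against 0.0442%. The median distance of summit to start was 188 bp over 20 H4K12la cases and 149 bp over 18 HDAC1 cases. Over all such genes the medians were 231.5 and 210.0 bp. Each case is 1 gene in 1 replicate, and the HDAC1 peaks common to HARS1 and HARS2 enter for both genes. H4K12la summits lay upstream in 8 of 20 cases (40.0%) and HDAC1 summits in 12 of 18 (66.7%). Over all genes the upstream shares were 44.4% and 68.7% for H4K12la and HDAC1, so the synthetase genes were near the background in this respect.

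**Figure D2:**
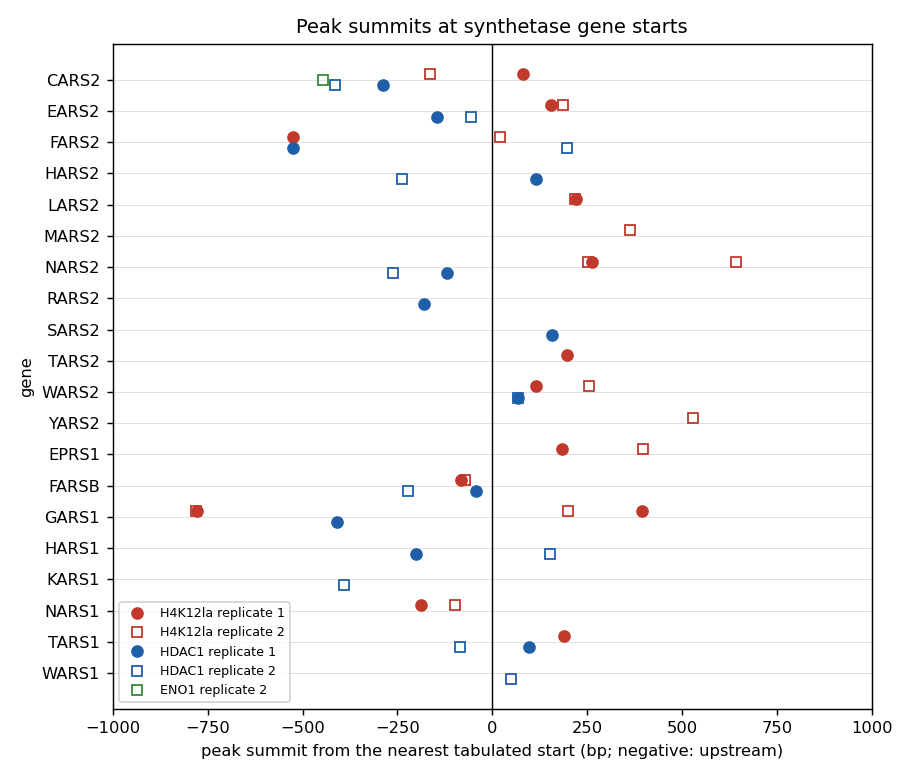
Position of each peak summit relative to the nearest tabulated start, in bp with upstream negative, for the synthetase genes with such a peak. Colours are targets, and filled circles and open squares are replicates 1 and 2. HDAC1 summits at EARS2 and NARS2 lie upstream while their H4K12la summits lie downstream, and GARS1 has H4K12la summits on both sides.

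When starts were used, FARS2, the mitochondrial phenylalanyl enzyme, gained H4K12la and HDAC1, and CARS2, the mitochondrial cysteinyl enzyme, gained H4K12la beside the HDAC1 it already had. Their gene entries begin 11073 and 7007 bp farther out than the outermost tabulated start, so peaks at the start had counted as body peaks. CARS2 carried 5.18-fold and 5.51-fold H4K12la and 6.21-fold and 4.79-fold HDAC1 there. FARS2 carried 3.97-fold and 4.45-fold H4K12la and 4.45-fold and 4.69-fold HDAC1, under peaks that also lay within 1 kb of LYRM4, an iron-sulfur cluster assembly gene. CARS2 was also the only synthetase gene with an ENO1 peak near a start, in replicate 2 only (6.61-fold, chromosome 13, 110706720 to 110707122, summit 446 bp upstream).

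Body peaks were found at few synthetase genes, and at few protein-coding genes in general. In both replicates H4K12la had them at 2 of 36 genes (5.56%), CARS2 and FARS2, against 4.61% of all protein-coding genes, and HDAC1 at the same pair, against 2.76%. Both are the start peaks just described. An offset of over 1 kb between gene entry and outermost tabulated start was present at 2 of 30 synthetase genes (6.67%). Among 15842 protein-coding genes the share was 8.04%, and the body shares of all genes were not corrected for it. RARS2, the mitochondrial arginyl enzyme, had a body peak of H4K12la in replicate 2 only (4.91-fold), 55128 bp downstream of its start. ENO1 had body peaks in both replicates at none, against 0.393% of all protein-coding genes.

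Replicate support at gene ends was 9 of 16 synthetase genes with H4K12la in either replicate (56.3%) and 10 of 15 with HDAC1 (66.7%), against 46.4% and 48.8% over all protein-coding genes. H4K12la was called only in replicate 1 at TARS1, TARS2 and TARS3, and only in replicate 2 at CARS2 (2.96-fold), LARS1 (3.12-fold), MARS2 (4.30-fold) and YARS2 (4.11-fold). TARS2, the mitochondrial threonyl enzyme, had 3.71-fold. HDAC1 was called only in replicate 1 at GARS1, RARS2 (5.06-fold) and SARS2 (5.36-fold), and only in replicate 2 at KARS1 (4.07-fold) and WARS1 (5.23-fold). Over all protein-coding genes, H4K12la was called only in replicate 1 at 598 and only in replicate 2 at 1800. For HDAC1 these numbers were 1323 and 380. The peaks at RARS2, SARS2, KARS1 and WARS1 each lay also within 1 kb of a neighbour, ORC3, MRPS12, TERF2IP and WDR25 in that order.

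Within each library, the synthetase genes with H4K12la had folds from 2.81 to 7.66 in replicate 1 (median 3.73, 12 genes) and from 2.96 to 5.70 in replicate 2 (median 3.69, 13 genes). All gene-end peaks had medians of 3.95 and 4.04. For HDAC1 they ran from 3.54 to 6.84 (median 4.84, 13 genes) and from 3.98 to 7.20 (median 5.22, 12 genes), and all gene-end peaks had medians of 4.69 and 4.73. Synthetase medians thus lay under those of all gene-end peaks in both H4K12la libraries and over them in both HDAC1 libraries, and the values overlapped widely.

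**Figure D3:**
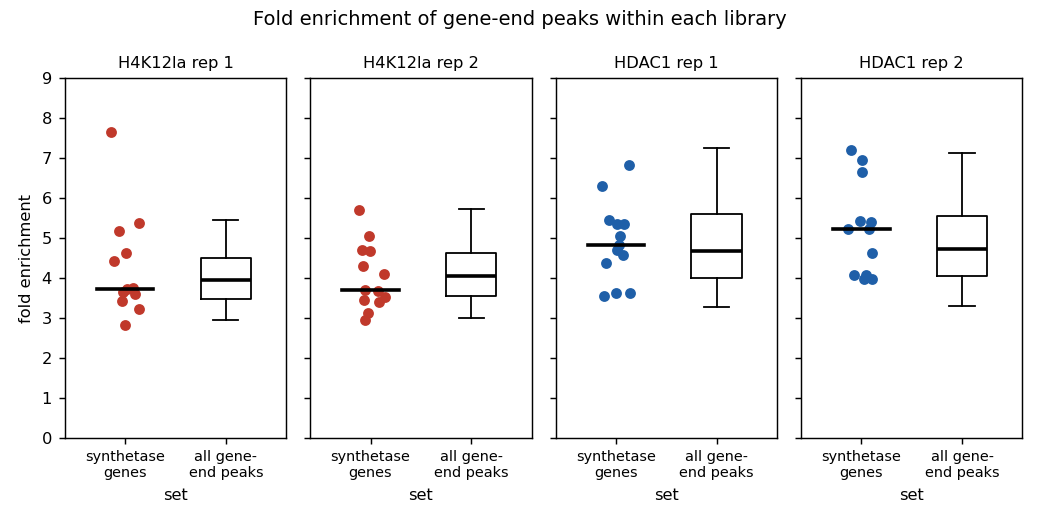
Fold enrichment in each H4K12la and HDAC1 library, with 1 point for the highest gene-end peak of each synthetase gene and a bar at their median, beside a box (quartiles, median, whiskers from the 5th to the 95th percentile) of all gene-end peaks. The synthetase medians are 3.73 and 3.69 in the H4K12la libraries and 4.84 and 5.22 in the HDAC1 libraries.

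H4K12la medians were lower at genes with both targets than at genes with H4K12la alone, in ranges that overlapped. Alone means here that the other target had no gene-end peak in both replicates. H4K12la was called in replicate 1 at TARS1 and TARS3 and in replicate 2 at CARS2, and HDAC1 in replicate 1 at GARS1. CARS2 also had H4K12la at its tabulated start in both replicates. The 5 both-target genes had median H4K12la of 3.75-fold (2.81 to 4.63) in replicate 1 and 3.53-fold (3.40 to 5.05) in replicate 2, and the 4 genes with H4K12la alone 4.42-fold (3.22 to 5.37) and 4.19-fold (3.68 to 5.70). Median HDAC1 was 5.34-fold (3.54 to 6.30) and 5.22-fold (4.08 to 7.20) at the 5 both-target genes, and 4.58-fold (3.62 to 6.84) and 5.42-fold (3.98 to 6.96) at the 5 genes with HDAC1 alone. These ranges also overlapped, and the order of the HDAC1 medians turned between replicates. At each of the 5 genes a peak of each H4K12la replicate overlapped a peak of each HDAC1 replicate, and the summits of the highest peaks of the targets lay from 1 to 904 bp apart.

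The difference in H4K12la between mitochondrial and cytosolic enzymes had no stable direction. H4K12la lay at 4 of 16 mitochondrial genes (25.0%, 10.2 to 49.5) and 5 of 19 cytosolic genes (26.3%, 11.8 to 48.8) in both replicates, a difference of -1.32 percentage points that became 17.9 points at tabulated starts, among the genes of the promoter table. By library the shares were 31.3% and 43.8% of mitochondrial genes and 31.6% and 31.6% of cytosolic genes in replicates 1 and 2. HDAC1 lay at 5 of 16 mitochondrial genes (31.3%, 14.2 to 55.6) and 4 of 19 cytosolic genes (21.1%, 8.51 to 43.3) in both replicates, with library shares of 43.8% and 31.3% against 26.3% and 31.6%. The difference, mitochondrial minus cytosolic, averaged 5.92 ± 8.84 percentage points for H4K12la and 8.55 ± 12.6 for HDAC1 (SD, n = 2 each), less than the spread between replicates in both cases. A difference between H4K12la and HDAC1 in this value was not detectable (-2.63 points, exact two-sided permutation test over the 4 libraries, p = 1, where the smallest possible p is 0.333), and it was -17.8 points in replicate 1 and 12.5 in replicate 2. The difference between compartments itself was set beside the spread between replicates and not tested.

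**Figure D4:**
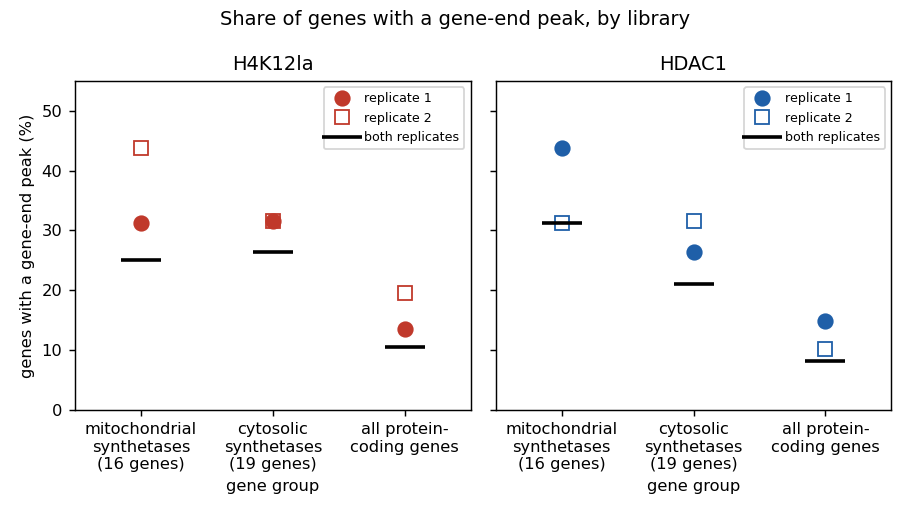
Share of genes with a gene-end peak (percent) among mitochondrial synthetases, cytosolic synthetases and all protein-coding genes, with a point for each replicate and a bar for genes called in both. Mitochondrial and cytosolic shares for H4K12la in both replicates are 25.0% and 26.3%, and for HDAC1 31.3% and 21.1%, with all protein-coding genes at 10.5% and 8.18%.

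The 16 mitochondrial enzymes were set beside their cytosolic counterparts by amino acid. H4K12la was reproducible at both genes in 2 pairs (EARS2 with EPRS1, and NARS2 with NARS1), at the mitochondrial gene alone in 2 (LARS2 and WARS2), at the cytosolic gene alone in 3 and at neither in 9. With a peak in either replicate counted, H4K12la was at both genes in 5 pairs, at the mitochondrial gene alone in 3, at the cytosolic gene alone in 2 and at neither in 6. HDAC1 was at both genes only for the histidyl pair with its common peak, at the mitochondrial gene alone in 4 pairs, at the cytosolic gene alone in 3 and at neither in 8, and in either replicate the numbers were 2, 5, 3 and 6 pairs in the same order. All of these counts rest on the ends of gene entries and were not tested. At tabulated starts, FARS2 had H4K12la and HDAC1 in both replicates, so the phenylalanyl pair would count as both for each target. CARS2 had H4K12la there in both replicates, so the cysteinyl pair would count as mitochondrial alone for H4K12la. The asparaginyl enzymes differed in HDAC1, which lay at NARS2 in both replicates and at NARS1 in neither. EPRS1 is the counterpart of both EARS2 and PARS2, and for the phenylalanyl enzymes a peak at FARSA or FARSB was counted.

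No gene-end peak of any target was called at 14 of the 36 genes (38.9%), 5 mitochondrial and 9 cytosolic: AARS2, FARS2, IARS2, PARS2 and VARS2, then AARS1, CARS1, FARSA, IARS1, MARS1, QARS1, RARS1, SARS1 and VARS1. A gene-end peak in at least 1 library was present at 61.1% of synthetase genes and 29.1% of all protein-coding genes. FARS2 counts among the 14, although H4K12la and HDAC1 lay at its tabulated start in both replicates. The alanyl enzymes were both among the 14. The nearest H4K12la peak to an end of AARS1 was 139 and 129 kb away in replicates 1 and 2 and the nearest HDAC1 peak 139 and 139 kb. For AARS2 the distances were 52.4 and 60.4 kb for H4K12la and 51.5 and 51.6 kb for HDAC1. QARS1, the cytosolic glutaminyl enzyme, was the first gene outside the 1 kb limit in all 4 of these libraries. H4K12la peaks of 3.43-fold and 3.79-fold lay 1242 and 1059 bp beyond its 3′ end, and HDAC1 peaks of 5.85-fold and 4.65-fold 1182 and 1301 bp beyond it, all within 1 kb of the end of QRICH1. Among genes inside the limit, the nearest H4K12la peak was at most 169 bp (GARS1) and 184 bp (EPRS1) from the gene end in replicates 1 and 2, and the nearest HDAC1 peak at most 313 bp (GARS1) and 162 bp (KARS1).

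The RefSeq promoters of 30 synthetase genes were like those of all protein-coding genes in base composition, with a median of 62.0% G and C and 23 CpG, against 62.7% and 22 over 15842 promoters. FARSB, marked by both targets, had the lowest G and C share at 46.7%. Motifs were searched on both strands of each 300-base window. CCGGAAG, the core bound by ETS factors, was in 15 of 30 synthetase promoters (50%) and in 14.2% of all. AAGATGGC, a core of the YY1 site, was in 6 (20.0%) and in 3.86% of all. TGATGNAA, the core of the amino acid response element bound by ATF4, a factor known to induce synthetase genes when amino acids are short, was in 6 (20.0%) and in 2.51% of all.

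The TGATGNAA promoters belonged to YARS2 among 14 mitochondrial enzymes and to AARS1, CARS1, IARS1, MARS1 and NARS1 among 16 cytosolic ones. Of these 6, NARS1 had reproducible H4K12la, YARS2 had it in replicate 2 only, and the other 4 had no gene-end peak of any target. For comparison, 61.1% of the 36 synthetase genes and 29.1% of all protein-coding genes had a gene-end peak in at least 1 library. A link between this motif and the peaks was not tested. CCGGAAG was at EARS2, 14 bases before the start, and at GARS1, 13 bases after it, among the printed promoters. CCAAT was in 16 of 30 (53.3%, against 36.4% of all), GGGCGG, the GC box, in 20 (66.7%, against 58.3%), CACGTG, the E-box, in 4 (13.3%, against 8.82%), GCGCATGC, a core of the NRF1 site, in 2 (6.67%, against 4.28%), and ACTACAA, part of the ZNF143 site, in none (against 3.13%). FARSB held none of the 8 motifs, and no match to one motif overlapped a match to another in the printed promoters. A match here is a description of letters and was not tested.

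A list of 20 further genes of tRNA charging and delivery gave H4K12la and HDAC1 shares of the same order, but only DTD2 had both reproducibly. In both replicates, the shares of all protein-coding genes were 10.5% for H4K12la, 8.18% for HDAC1, 3.18% for both targets and 0.0654% for ENO1. H4K12la was reproducible at 5 of 20 (25.0%): AIMP1 (3.78-fold and 5.14-fold) and AIMP2 (2.94-fold and 3.17-fold), which scaffold the cytosolic multisynthetase complex, and GATB, QRSL1 and DTD2. GATB (5.80-fold and 5.06-fold) and QRSL1 (5.24-fold and 5.21-fold) encode subunits of the amidotransferase that makes mitochondrial glutaminyl-tRNA, and its remaining subunit gene GATC had no H4K12la peak. HDAC1 was reproducible at 5 of 20 (25.0%): DTD2, EEF1A1, EEF1A2, EEF1E1 and SEPSECS. DTD2, which clears wrongly charged tRNA, was the only one with both, at 5.56-fold and 7.47-fold H4K12la and 4.71-fold and 6.54-fold HDAC1. The elongation factor gene EEF1A1 (5.17-fold and 4.54-fold HDAC1) has many near-identical copies, so its reads may be uncertain. ENO1 was reproducible at none of the 20, and at EEF1A2 in replicate 2 only (4.43-fold).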

How the data were processed

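CUT&Tag libraries of HepG2 cells for H4K12la, HDAC1 and ENO1, 2 replicates each, were grouped by their titles. FastQC, Bowtie2, MACS2, deepTools and the build hg38 are named per the submitters' processing notes, while versions, settings and any control library were not given in the sources used here. Deposited narrow peak lists, 1 per library, were the input. In them the authors give each peak a fold enrichment, a ratio over background within the library with no scaling between libraries, the -log10 of its p value and q value (q of at least 2 on that scale), a score and a summit.

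Peaks on chromosomes 1 to 22, X and Y were set against gene entries of RefSeq GRCh38 patch 14 by an overlap of at least 1 bp with windows of 1 kb around both ends. Entries that belong to alternate sequences were left out. Occupied genes had a peak in both replicates. Where several peaks lay at a gene the highest fold was used. Starts came from the RefSeq promoter table of the same build.

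No test was run across genes. Wilson 95% intervals, given only for the main gene-end counts of H4K12la and HDAC1, cover counting error only. H4K12la was tested against HDAC1 over libraries in the difference of shares between compartments, which was not itself tested. The 36 genes, their order, the further list of 20 genes, the 9 markers and the 8 motifs were chosen with earlier results of these libraries known. Named genes were all genes with a peak, and promoters were printed for genes with both targets and the 2 with the highest lower fold for each target, where the table holds them. Some genes of the further list are not reported here. Overlap scoring was tested on simulated data. Python 3.11.15, numpy 2.4.6, pandas 2.3.3 and scipy 1.17.1 were used.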

Additional observations from a re-analysis of the deposited data

How the results depend on the processing

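The counts of synthetase genes with H4K12la and with HDAC1 stayed within 1.5 times of 9 and 10 under windows of 500 bp and 2 kb, summits in place of edges, tabulated starts, equal numbers of strongest peaks, either replicate alone (12 to 13 for each target) and genes under a common peak counted once. At -log10 q of 5 or more the counts were 4 for H4K12la, 6 for HDAC1 and 1 for both targets (YARS1), a setting that keeps fewer peaks. The share of all protein-coding genes at that setting was 1.61% for both targets and is not given here for each target by itself. Without genes whose peak also lies at another gene, an alternative chosen after seeing the data, the counts were 7, 5 and 3, and all-gene shares are not given for it. Both targets together gave 6 to 8 genes with 1 replicate of each alone. The ENO1 count was 0 in every setting run.

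The difference in share between mitochondrial and cytosolic genes had no stable direction. For H4K12la it was -1.32 points, and it turned to 17.9 points at tabulated starts, where only genes of the promoter table count, to 2.96 with equal numbers of peaks and to 1.47 without GARS1 and KARS1, and it ran from -0.329 to 12.2 with 1 replicate alone. For HDAC1 it was 10.2 points, 24.1 at tabulated starts, 4.93 within 2 kb, 2.96 with equal numbers of peaks, and from -0.329 to 17.4 with 1 replicate alone. At tabulated starts H4K12la gained the mitochondrial CARS2 and FARS2, and HDAC1 gained FARS2. Both targets lost YARS1 and HDAC1 also lost TARS3, genes that the promoter table lacks. The cause of the differences themselves was not tested.

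H4K12la minus HDAC1 in this difference was -2.63 points over libraries. Its alternatives were chosen after seeing the data: it turned to 3.57 at tabulated starts and ran from -17.8 to 12.5 with 1 replicate alone. With equal numbers as a replicate block the mean stayed -2.63 points (exact sign-flip permutation, 2 pairs, two-sided p = 1, where the smallest possible p is 0.5), and the labels do not tie equal numbers to a common batch. The counts of genes come from no test and have no blocked form. The length of each peak list (1189 to 7568 peaks) limits what it can show, and no control library was analysed here.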
